A study of Homo sapiens with 31 samples.

Results

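The genes described here are NTS, which encodes the precursor of neurotensin, and NTSR1, which encodes its main receptor, in xenografts of PC3, an established human prostate carcinoma line. They were chosen by name, as the neurotensin precursor and its receptors, and each was read by 1 probe set annotated to that gene alone. Of the 3 genes named, 2 were measured, among 17314 genes in all, and SORT1 was not analysed here. NTS was chosen because it was known to differ between the lines in these data, so its differences between lines are given as a description with no test. NTSR1 was chosen for its role beside NTS and was tested.

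The tumours fell into 8 groups of 4 lines and 2 treatments, each with 4 arrays except untreated A3 with 3. D4 and D3 are clones that had been passaged in animals and re-isolated, and the labels call them resistant to cyclophosphamide (CPA), an alkylating prodrug activated in the liver. A3 is a clone passaged in the same way that the labels call sensitive, and wt is the unpassaged parental line, also called sensitive. Cells of each line were implanted and grew to a mean of 30 mm3, after which 1 group per line received CPA at 120 mg/kg into the peritoneal cavity and the other served as untreated control. The series concerns resistance to repeated low-dose CPA. Each clone is a single re-isolated line, so a difference between lines cannot be told apart from a difference between resistance states. Whether the arrays of a group came from different animals is not stated in the labels, so p-values reflect variation among the samples, some of it possibly technical.

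Values are log2 expression levels from Affymetrix Human Gene 1.0 ST arrays, on which several short probes spread along a transcript are summarised to 1 level, and 1 unit is a 2-fold change. A gene was called where limma gave a Benjamini-Hochberg adjusted p under 0.05 over all genes. Array medians lay between 6.59 and 6.73. The epithelial markers KRT8, KRT18 and EPCAM were measured on every array, with lowest levels of 9.41, 9.85 and 8.09. Of 7 markers listed for the carcinoma cells, KRT8, KRT18, KRT19, EPCAM and CDH1 are epithelial, and CDH2 and VIM are mesenchymal. In untreated A3 against wt 3 epithelial ones were lower, KRT8 (-0.46), EPCAM (-0.39) and CDH1 (-1.03), and 1 mesenchymal one was higher, CDH2 (0.43). The median difference over the 7 was 0.03. Of all genes 10.1% were higher and 8.36% lower. Against A3, 2 of the 7 (KRT8 and EPCAM) were higher in untreated D3 and in D4, beside 1.30% and 1.75% of all genes. The mean level over 8 fibroblast markers lay between 6.26 and 6.50 in untreated A3, against 6.53 to 6.59 in untreated wt, and that over 6 endothelial markers between 5.71 and 5.80 in A3, against 5.86 to 6.13 in wt. Of the fibroblast markers 2 were lower (COL3A1 and LUM) and 0 higher in untreated A3 than in wt, with a median difference of -0.07. Of the endothelial markers 2 were lower (PECAM1 and KDR) and 0 higher, with a median of 0.01. Both counts stand beside 8.36% of all genes lower and 10.1% higher. After CPA the ranges overlapped, at 6.26 to 6.40 in A3, against 6.31 to 6.66 in wt, for fibroblast markers and 5.85 to 5.97 in A3, against 5.87 to 6.02 in wt, for endothelial markers. LUM ranged only from 2.654 to 3.895 over all arrays. The arrays are designed for human transcripts, so signal from host cells and from the PC3 cells themselves cannot be told apart in these fibroblast and endothelial levels. The part of host cells in the results was not tested. In whole tumours fewer cells of a type and less RNA per cell cannot be told apart.

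Neurotensin is a short peptide cut from its precursor in endocrine cells of the gut and in neurons. NTSR1 is a receptor that couples to Gq proteins, which activate phospholipase C and protein kinase C and, through release of EGF receptor ligands, the ERK kinases. NTSR2 is a related receptor, and sortilin, the product of SORT1, binds neurotensin with a different fold and sorts proteins between the Golgi and the endosomes. Prostate carcinoma cell lines, PC3 among them, are known to carry NTSR1 and to grow in response to neurotensin.

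The stretches just upstream of the starts of both genes differ in composition and are printed because the 2 genes behaved differently between the lines. They are the 250 bases before the start in the RefSeq annotation of GRCh38.p14, chr12:85874045-85874294 for NTS and chr20:62708586-62708835 for NTSR1, both on the plus strand. Capitals mark matches to TATATA in NTS and to GGGCGG, the letters of a GC box, in NTSR1.
NTS: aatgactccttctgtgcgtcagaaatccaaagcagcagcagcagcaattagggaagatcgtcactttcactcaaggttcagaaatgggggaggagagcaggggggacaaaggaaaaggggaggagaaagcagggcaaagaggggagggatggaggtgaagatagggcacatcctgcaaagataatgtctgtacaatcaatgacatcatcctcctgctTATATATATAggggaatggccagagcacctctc
NTSR1: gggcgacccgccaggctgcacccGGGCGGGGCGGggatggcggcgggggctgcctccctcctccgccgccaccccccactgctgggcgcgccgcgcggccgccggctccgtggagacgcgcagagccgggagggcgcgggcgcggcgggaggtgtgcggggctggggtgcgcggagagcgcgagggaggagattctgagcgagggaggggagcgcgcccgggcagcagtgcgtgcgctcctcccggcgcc
The NTS stretch was 49.2% G and C and the NTSR1 stretch 82.0%, against a median of 58.0% over 35116 such regions. NTS held 3 overlapping matches to TATATA, the first beginning 33 bases before the start, and 3.73% of all regions held at least 1. NTSR1 held 2 overlapping matches to GGGCGG and NTS held 0, and 42.6% of regions held 1 or more. TGACG, the core of the cyclic AMP response element, was matched 2 times in NTS and 0 times in NTSR1, against 21.2% of regions with a match. Neither stretch held TGANTCA, the letters of an AP-1 site, the full element TGACGTCA or TATAAA, which were found in 6.57%, 1.65% and 10.7% of regions. Both strands were searched. A match describes these letters and no binding was measured.

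NTS stood far higher in A3 tumours than in any other line. In CPA-treated A3 the levels of NTS were 9.29, 9.71, 9.11 and 9.26, and in untreated A3 they were 9.73, 9.25 and 9.65. In the resistant clone D4 they were 7.80, 7.40, 6.94 and 7.63 after CPA and 6.38, 7.40, 6.90 and 7.05 in controls. Every A3 array lay above every D4 array, whether treated or not. The resistant clone D3 gave 7.06, 7.52, 6.95 and 6.50 after CPA and 7.24, 7.85, 7.17 and 7.65 in controls. Unpassaged wt gave 6.53, 6.62, 6.99 and 6.73 after CPA and 6.50, 7.51, 6.92 and 6.91 in controls. The D4, D3 and wt tumours shared a common range from 6.38 to 7.85, and A3 began at 9.11.

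The group means of NTS were 7.44 ± 0.37 in CPA-treated D4 and 6.93 ± 0.42 in untreated D4 (SD, n = 4 each). They were 7.01 ± 0.42 in CPA-treated D3 and 7.48 ± 0.32 in untreated D3 (SD, n = 4 each). A3 averaged 9.34 ± 0.26 after CPA (SD, n = 4) and 9.54 ± 0.26 in controls (SD, n = 3), and wt averaged 6.72 ± 0.20 and 6.96 ± 0.41 (SD, n = 4 each). In order of level, the arrays of neighbouring groups among the 6 of D4, D3 and wt overlapped, whereas the step up to A3 was larger than the spread of any group. The 8 group means spanned 2.82, and of all genes 2 spanned more, CP with 4.41 and IFI44L with 2.89.

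**Figure D1:**
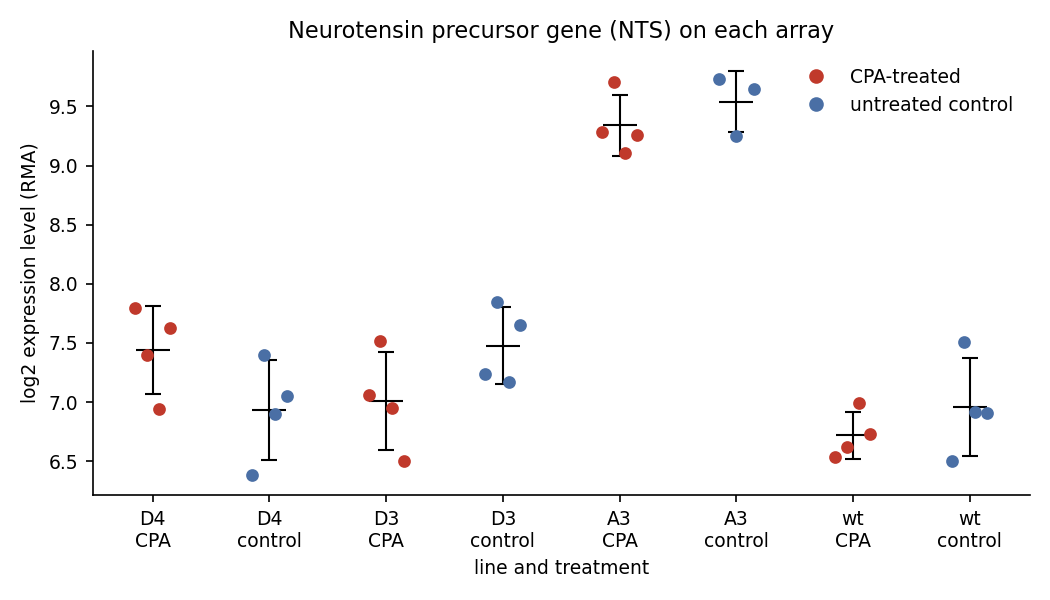
Log2 level of NTS on each array (y axis) by line and treatment (x axis); points are arrays, horizontal bars the group mean and whiskers the SD. The 7 A3 arrays sit between 9.11 and 9.73, above the 24 arrays of D4, D3 and wt.

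In untreated tumours NTS was 6.10-fold lower in D4 than in A3 (log2 difference -2.61 ± 0.24 SE) and 4.18-fold lower in D3 than in A3 (-2.06 ± 0.24 SE). It was 5.99-fold higher in A3 than in wt (2.58 ± 0.24 SE). After CPA the same differences were -1.90, -2.33 and 2.62 (each ± 0.22 SE). In these 6 comparisons the NTS arrays did not overlap, with gaps between the nearest arrays of 1.31 to 2.12. Arrays did not overlap for 9.62% of genes in untreated D4 against A3, 12.3% in D3 against A3 and 24.2% in A3 against wt, and for 18.4%, 9.65% and 19.3% after CPA. Nothing is read from these shares, since NTS was chosen for these differences.

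The differences of both resistant clones from wt in NTS were smaller than those from A3. Untreated D4 differed from untreated wt by -0.03 ± 0.22 SE and untreated D3 by 0.52 ± 0.22 SE. After CPA the differences from wt were 0.72 ± 0.22 SE in D4 and 0.29 ± 0.22 SE in D3. D4 differed from D3 by -0.55 ± 0.22 SE in untreated tumours and by 0.43 ± 0.22 SE after CPA, and the arrays overlapped in all 6 of these comparisons.

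CPA gave no called change of NTS in any line. The log2 difference between CPA-treated and untreated tumours was 0.51 ± 0.22 SE in D4 (95% interval 0.06 to 0.96, limma adjusted p 0.182) and -0.47 ± 0.22 SE in D3 (-0.92 to -0.02, limma adjusted p 0.377). It was -0.20 ± 0.24 SE in A3 (-0.69 to 0.28, limma adjusted p 0.955) and -0.24 ± 0.22 SE in wt (-0.69 to 0.21, limma adjusted p 1). Treated and untreated arrays overlapped in each line. Of all genes, CPA called 1.03% in D4, 0.231% in D3, 0.352% in A3 and 0.0462% in wt. These tests use the untreated arrays that also enter the comparisons between lines.

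The responses of NTS to CPA pointed opposite ways in the 2 resistant clones. The response in D4 exceeded that in D3 by 0.98 ± 0.31 SE (95% interval 0.34 to 1.61). This difference of responses did not pass the test over all genes (limma adjusted p 0.0842, unadjusted p 0.00379), and 0.0866% of genes did. Without replicate 2 of untreated D4 the difference was 1.13 with an adjusted p of 0.0395, and over single arrays left out the adjusted p ranged up to 0.217. The D4 response exceeded that in wt by 0.74 ± 0.31 SE (limma adjusted p 0.667) and that in A3 by 0.71 ± 0.32 SE (limma adjusted p 0.331).

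NTSR1, the Gq-coupled receptor, stayed within a narrow range in the same tumours. Its levels in D4 were 9.20, 9.11, 9.53 and 8.88 after CPA and 9.08, 9.31, 9.65 and 9.01 in controls. In D3 they were 9.30, 8.84, 9.40 and 8.78 after CPA and 9.33, 8.93, 9.35 and 9.03 in controls. The ranges of both clones overlapped after either treatment. A3 gave 9.63, 9.03, 9.29 and 9.03 after CPA and 9.30, 9.31 and 9.43 in controls, and wt gave 9.33, 8.91, 9.31 and 8.84 after CPA and 9.20, 9.16, 9.16 and 9.07 in controls. Group means lay between 9.08 ± 0.32 in CPA-treated D3 (SD, n = 4) and 9.35 ± 0.07 in untreated A3 (SD, n = 3), a span of 0.27. As many as 11690 of the 17314 genes had a span at least as large, and no neighbours in the order of NTSR1 levels differed beyond their spread.

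None of 22 contrasts called NTSR1 in limma, and 0 had an unadjusted p under 0.05. Beside this, the share of all genes called in untreated tumours was 3.77% for D4 against A3, 2.27% for D3 against A3, 18.5% for A3 against wt, 20.1% for D4 against wt, 18.1% for D3 against wt and 0.323% for D4 against D3. After CPA the shares in the same order were 12.4%, 4.55%, 16.3%, 15.1%, 16.4% and 8.05%. For the differences of the CPA response between lines they were 0.00% in 5 contrasts and 0.0866% for D4 against D3. Untreated D4 differed from A3 by -0.08 ± 0.17 SE (95% interval -0.43 to 0.27, limma adjusted p 0.869) and untreated D3 from A3 by -0.19 ± 0.17 SE (-0.54 to 0.16, limma adjusted p 0.814). Untreated A3 exceeded wt by 0.20 ± 0.17 SE (-0.15 to 0.55, limma adjusted p 0.497). In this last comparison the arrays did not overlap, with a gap of 0.11, as for 24.2% of genes. CPA differed from control by -0.08 in D4, -0.08 in D3, -0.10 in A3 and -0.05 in wt, with intervals that reached no farther than -0.45 and 0.27. Over the comparisons named here the intervals leave room for NTSR1 differences as large as -0.54 or 0.55 on the log2 scale.

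**Figure D2:**
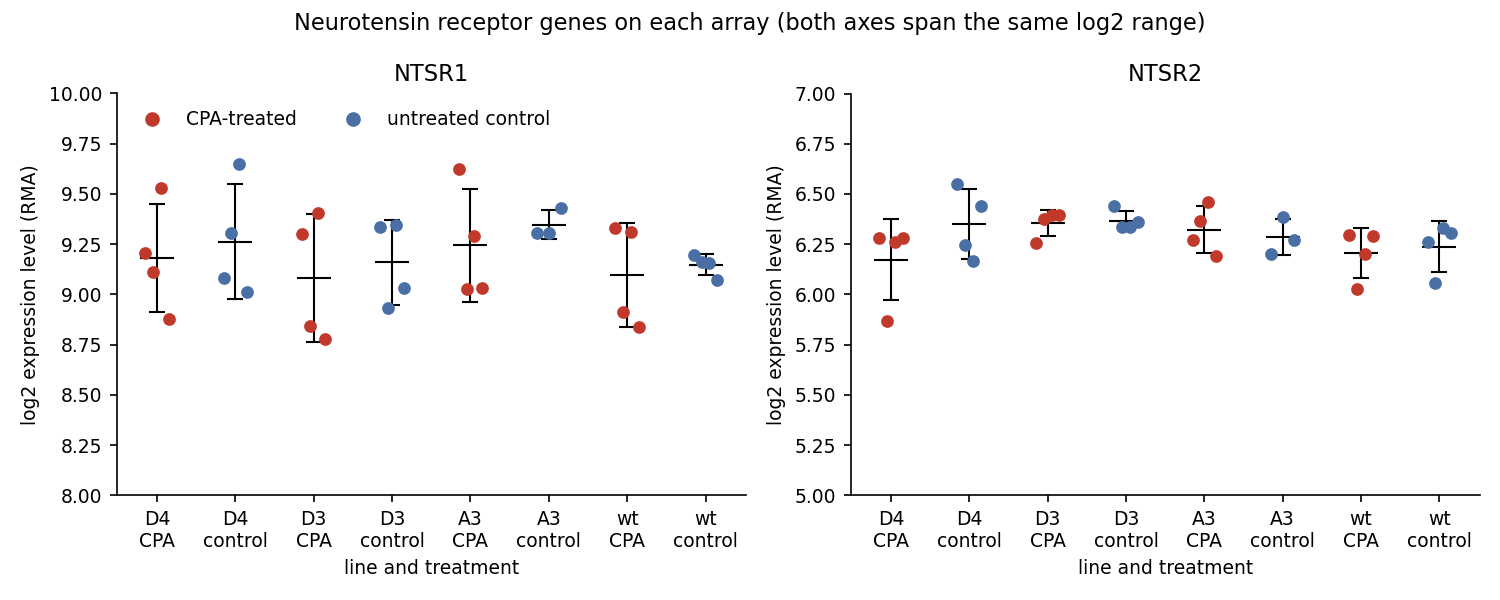
Log2 level of NTSR1 (left) and NTSR2 (right) on each array by line and treatment; points are arrays, bars the group mean and whiskers the SD, and both y axes span the same range. NTSR1 group means lie between 9.08 and 9.35 and those of NTSR2 between 6.17 and 6.37.

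**Figure D3:**
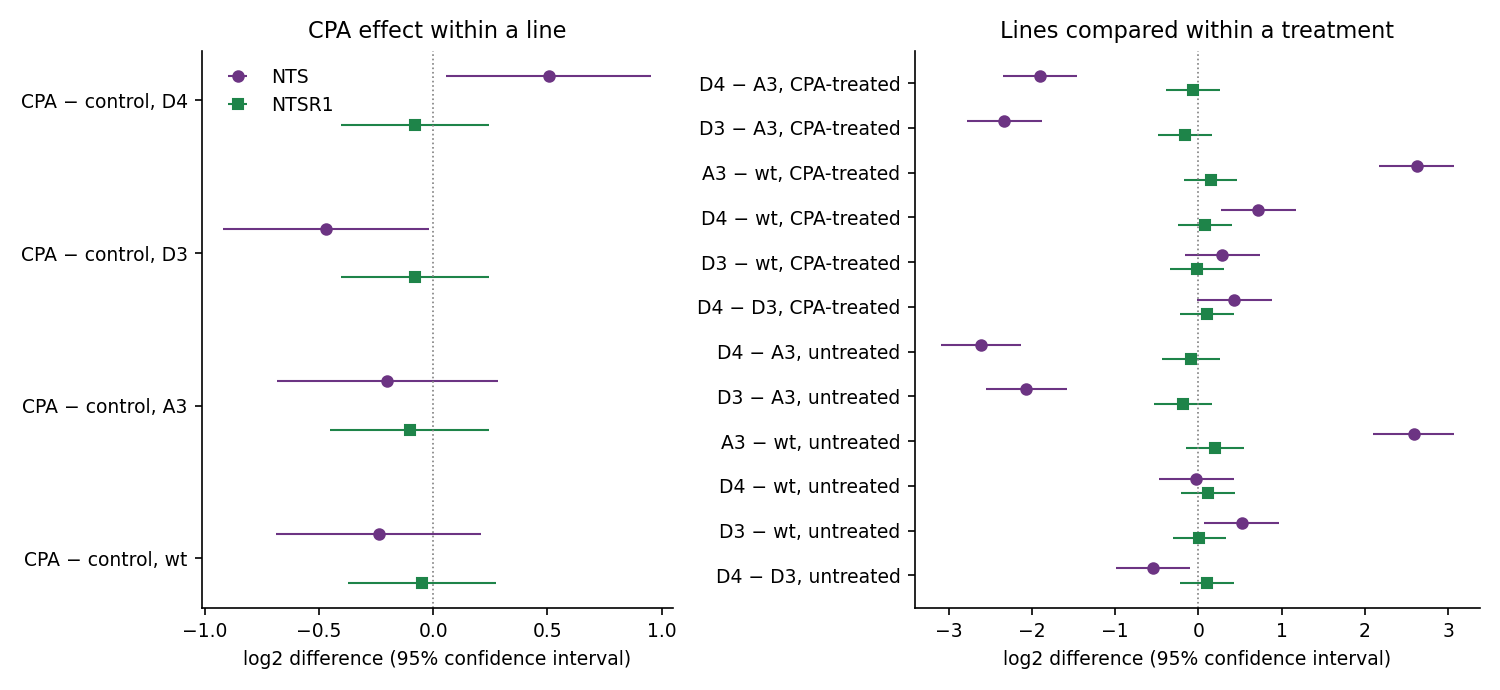
Log2 differences of NTS (circles) and NTSR1 (squares) with 95% confidence intervals: CPA minus control within each line (left) and lines compared within a treatment (right). NTS differs most in the 6 comparisons with A3. It was chosen for its differences between lines, so its intervals on the right are a description and no test. Each NTSR1 interval holds 0.

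NTSR2, the second neurotensin receptor, averaged between 6.17 ± 0.20 in CPA-treated D4 and 6.37 ± 0.05 in untreated D3 (SD, n = 4 each). Its levels, from 5.87 to 6.55, lay below the lowest array median of 6.59. NTS and NTSR1 correlated at 0.75 over the 8 group means, at 0.20 over the 31 arrays and at -0.20 over the arrays after the group means were removed. These correlations describe points that share lines and arrays. The relation seen over group means thus had no counterpart within groups.

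Among the sortilin family and receptor genes, SORL1, an endosomal sorting receptor, was lower in untreated A3 than in wt by 0.48 on the log2 scale (-0.48 ± 0.11 SE, limma adjusted p 0.00242). It averaged 8.63 ± 0.23 in untreated D4, 8.60 ± 0.08 in D3 (SD, n = 4 each) and 8.65 ± 0.09 in A3 (SD, n = 3), against 9.13 ± 0.11 in wt (SD, n = 4). SORL1 thus set the 3 passaged clones apart from wt and not A3 from the rest, unlike NTS. After CPA it was again lower in A3 than in wt (-0.43 ± 0.10 SE, limma adjusted p 0.00335). Of 6 genes measured on this list, 0 were higher and 1 lower in untreated A3 than in wt, where 18.5% of all genes were called. Called in untreated D3 or D4 against A3 were 0 of the 6, with 0 and 1 at an unadjusted p under 0.05 in limma, while the backgrounds were 2.27% and 3.77%. After CPA 1 of the 6, SORCS3, was lower in D4 than in A3 (-0.35 ± 0.11 SE, limma adjusted p 0.0372), beside 4.97% of all genes lower. That call was lost in 7 of 8 fits with 1 array left out.

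MME, the membrane peptidase neprilysin that cuts neurotensin, followed a pattern like that of NTS after CPA, but at low levels. Over all arrays it ranged from 5.01 to 6.58, below the lowest array median of 6.59. CPA-treated A3 tumours had MME levels of 5.83, 6.19, 6.25 and 6.15. CPA-treated D4 tumours had 5.37, 5.31, 5.21 and 5.16, D3 tumours 5.30, 5.26, 5.35 and 5.47, and wt tumours 5.48, 5.45, 5.13 and 5.16. A3 arrays lay above all others in that treatment. MME was lower in CPA-treated D4 than in A3 (-0.84 ± 0.17 SE, limma adjusted p 0.00103) and in D3 than in A3 (-0.76 ± 0.17 SE, limma adjusted p 0.00544), and higher in A3 than in wt (0.80 ± 0.17 SE, limma adjusted p 0.000887). These 3 calls held whichever single array was left out, with adjusted p up to 0.0217.

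In untreated tumours MME was less clear. It averaged 5.43 ± 0.33 in D4, 5.29 ± 0.21 in D3 (SD, n = 4 each), 5.99 ± 0.56 in A3 (SD, n = 3) and 5.33 ± 0.23 in wt (SD, n = 4). The A3 arrays read 6.58, 5.46 and 5.94, so they overlapped the other lines. MME was lower in D3 than in A3 (-0.70 ± 0.18 SE, limma adjusted p 0.0305) and higher in A3 than in wt (0.66 ± 0.18 SE, limma adjusted p 0.00829). The difference of D4 from A3 was -0.57 ± 0.18 SE (limma adjusted p 0.0753). Without replicate 1 of untreated A3 the differences were -0.41 (adjusted p 0.305) for D3 and 0.37 (adjusted p 0.149) for A3 against wt. The D3 call was also lost without A3 replicate 4 (adjusted p 0.0979), D3 replicate 1 (0.0915) and D3 replicate 5 (0.101), and with replicate number as a block (0.0745). In a fit of the compared groups alone the adjusted p was 0.225 for D3 against A3 and 0.0806 for A3 against wt.

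Of the 6 peptidases known to cut neurotensin, 3 were higher and 1 lower in untreated A3 than in wt, against 10.1% of all genes higher and 8.36% lower. THOP1, a soluble oligopeptidase, was higher by 0.42 ± 0.10 SE (limma adjusted p 0.00283), and this call held whichever array was left out. In D4 and D3 THOP1 averaged 8.32 ± 0.17 and 8.43 ± 0.06 (SD, n = 4 each), near the 8.38 ± 0.09 of A3 (SD, n = 3) and above the 7.95 ± 0.11 of wt (SD, n = 4). Neurolysin, NLN, was higher by 0.27 ± 0.09 SE (limma adjusted p 0.0412) and the endothelin-converting enzyme ECE1 was lower (-0.29 ± 0.08 SE, limma adjusted p 0.0151). The NLN call was lost without wt replicate 1 (adjusted p 0.142) or 3 (0.107) or A3 replicate 1 (0.128), 2 (0.0802) or 4 (0.0758), and that of ECE1 without A3 replicate 1 (0.0594). In a fit of the compared groups alone the adjusted p was 0.138 for NLN and 0.0609 for ECE1, and with replicate number as a block that of NLN was 0.0558. ACE and PREP differed by -0.14 and 0.17 and were not called. Against A3, 1 of the 6 was lower in untreated D3 (MME), where 0.970% of all genes were lower. In untreated D4 0 of the 6 were called, beside 3.77% of all genes, with 2 at an unadjusted p under 0.05 in limma. In CPA-treated D4 against A3 MME was lower and NLN was higher (0.30 ± 0.09 SE, limma adjusted p 0.0208). Of all genes 4.97% were lower and 7.41% higher there. That NLN call was lost in 4 of 8 fits with 1 array left out.

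Genes that process peptide precursors were measured for 11 of 15 listed. In untreated A3 against wt 1 was higher and 3 were lower, beside 10.1% of all genes higher and 8.36% lower. PCSK6, a proprotein convertase, was higher by 0.42 ± 0.08 SE (limma adjusted p 0.000552) and the carboxypeptidase CPE was lower (-0.34 ± 0.09 SE, limma adjusted p 0.00861). Both calls held whichever array was left out. The carboxypeptidase CPD was lower (-0.29 ± 0.09 SE, limma adjusted p 0.0233), as was PAM, which amidates peptides (-0.30 ± 0.10 SE, limma adjusted p 0.0312). CPD was lost without wt replicate 2 (adjusted p 0.0767) or A3 replicate 2 (0.236), and PAM without wt replicate 1 (0.0702) or 2 (0.131) or A3 replicate 2 (0.177) or 4 (0.0659). In a fit of the compared groups alone the adjusted p was 0.118 for CPD and 0.128 for PAM. Against untreated A3, 0 of the 11 were called in D3, beside 2.27% of all genes, and 0 in D4, beside 3.77%, with 1 and 4 at an unadjusted p under 0.05 in limma. After CPA, CPE and CPD were higher in D4 than in A3, by 0.38 ± 0.09 SE (limma adjusted p 0.00347) and 0.33 ± 0.08 SE (limma adjusted p 0.00951), where 7.41% of all genes were higher.

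**Figure D4:**
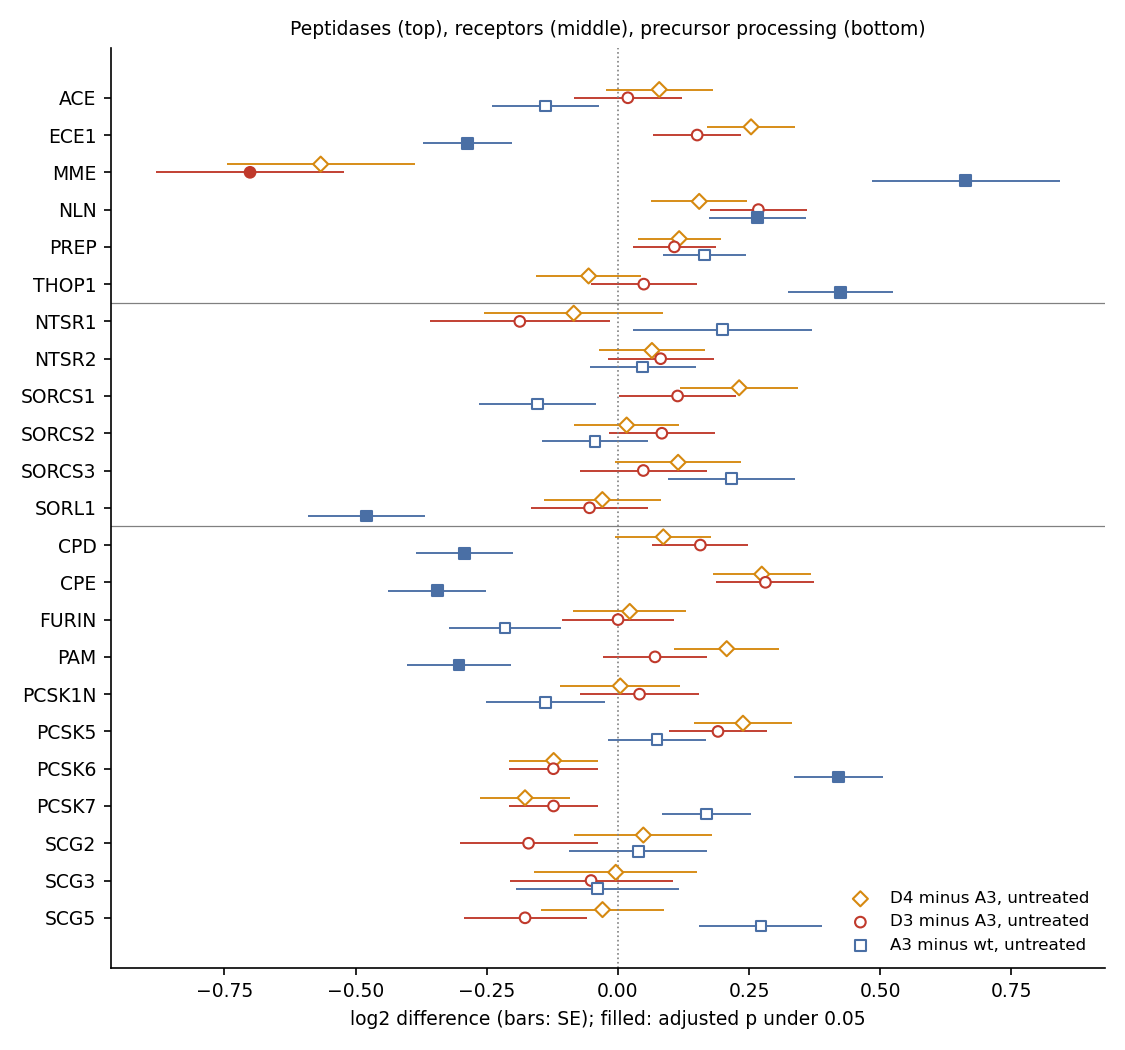
Log2 differences with their SE in untreated tumours for 6 peptidases (top), 6 receptors (middle) and 11 precursor processing genes (bottom): D4 minus A3 (diamonds), D3 minus A3 (circles) and A3 minus wt (squares). Filled symbols have a limma adjusted p under 0.05, and MME is the filled circle, at -0.70.

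Downstream of the receptor, RGS4, which shortens signalling by Gq proteins, was lower in CPA-treated D4 and D3 than in CPA-treated A3. It averaged 7.03 ± 0.18 in CPA-treated D4 and 7.11 ± 0.03 in D3, against 7.72 ± 0.25 in A3 (SD, n = 4 each). The differences were -0.69 ± 0.11 SE for D4 (limma adjusted p 9.5e-05) and -0.61 ± 0.11 SE for D3 (limma adjusted p 0.000892), and both calls held whichever array was left out. CPA-treated wt averaged 6.98 ± 0.05 (SD, n = 4), below A3 as well. In untreated tumours RGS4 was lower in D4 than in A3 (-0.45 ± 0.12 SE, limma adjusted p 0.0284), but not without A3 replicate 1 (adjusted p 0.185), A3 replicate 4 (0.0557) or D4 replicate 1 (0.111), and not in a fit of the compared groups alone (0.217). Other called genes of the Gq list did not all follow RGS4. In untreated A3 PRKD1 (-0.59), ITPR2 (-0.60), GNA14 (-0.33) and PLCB1 (-0.41) were lower than in wt, beside 8.36% of all genes. In CPA-treated D4 against A3 ITPR1 (-0.63) and PLCB3 (-0.30) were lower and ITPR2 (0.38) was higher. Of all genes 4.97% were lower and 7.41% higher there. Leaving out single arrays undid the calls of GNA14, PLCB1 and PLCB3, and that of ITPR2 in D4.

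Of 21 measured genes that ERK signalling is known to induce, 0 were higher and 4 lower in CPA-treated D4 than in A3, against 7.41% of all genes higher and 4.97% lower. In CPA-treated D3 1 was higher and 4 were lower, against 1.56% and 2.99%. DUSP6, an ERK phosphatase, averaged 10.53 ± 0.13 in CPA-treated D4 and 10.53 ± 0.12 in D3, against 11.04 ± 0.22 in A3 (SD, n = 4 each). Its differences were -0.51 ± 0.11 SE in both clones, with limma adjusted p 0.00185 in D4 and 0.00389 in D3. In wt DUSP6 averaged 11.10 ± 0.12 after CPA (SD, n = 4). PHLDA1 was lower by 0.45 in CPA-treated D4 (-0.45 ± 0.06 SE, limma adjusted p 4.85e-06), and SPRY2, a feedback inhibitor of receptor kinases, was lower in D3 (-0.46 ± 0.09 SE, limma adjusted p 0.00212). The calls of DUSP6, of PHLDA1 in D4 and of SPRY2 held whichever array was left out.

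In untreated tumours PHLDA1 averaged 10.05 ± 0.03 in D4 and 10.20 ± 0.02 in D3 (SD, n = 4 each), against 10.44 ± 0.11 in A3 (SD, n = 3). It was lower in D4 than in A3 (-0.39 ± 0.06 SE, limma adjusted p 0.000204). In a fit of the compared groups alone the adjusted p of PHLDA1 was 0.178. In untreated A3 against wt 5 of the 21 were higher and 3 lower, beside 10.1% of all genes higher and 8.36% lower. CXCL8, a neutrophil chemokine, was higher by 0.58 and SPRY4, another feedback inhibitor, was lower by 0.74 on the log2 scale (-0.74).

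Over the 10 lists of the neurotensin pathway and of genes set beside it, 158 of 188 genes were measured. They are called pathway genes below, though the lists also hold other peptide hormones and their receptors, lineage genes and sortilin partners. In untreated A3 against wt 42 of them were called, 20 higher and 22 lower, or 26.6% beside 18.5% of all genes, and their median difference was 0.04, as over all genes. Without replicate 2 of untreated A3 25 were called. In untreated D4 against A3 9 were called, 3 higher and 6 lower (5.70%, beside 3.77% of all genes, with 1.75% higher and 2.02% lower), and 3 without A3 replicate 1 or 4. In untreated D3 against A3 4 were called, 2 in each direction (2.53%, beside 2.27% of all genes, with 1.30% higher and 0.970% lower). This fell to 1 without A3 replicate 1 or D3 replicate 5 and to 2 without A3 replicate 4, D3 replicate 1 or D3 replicate 2. In a fit of the compared groups alone the counts were 23 for A3 against wt, 0 for D4 against A3 and 0 for D3 against A3, and with array weights they were 18 for D4 and 19 for D3 against A3. These comparisons share the untreated A3 arrays. Higher than in A3 were the EGF receptor ligand gene TGFA (0.42 in D3, 0.40 in D4) and AP1G1 (0.42 and 0.49). The limma adjusted p was 0.0238 and 0.0244 for TGFA and 0.00782 and 0.00112 for AP1G1. The AP1G1 calls held whichever array was left out, and those of TGFA were lost in 4 of 7 such fits in each clone. The lower genes were MME and PHLDA1 in D3, and RGS4, DUSP5, PHLDA1, CALCRL, NPY1R and TCF7L2 in D4.

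Among the regulators listed, LEF1, a transcription factor of the Wnt pathway, was higher in untreated A3 than in wt by 0.75 (limma adjusted p 2.89e-05) and NR3C1, the glucocorticoid receptor, was lower (-0.49, limma adjusted p 0.000131). TCF7L2, a partner of beta-catenin, was lower in CPA-treated D4 (-0.49 ± 0.10 SE, limma adjusted p 0.00229) and D3 (-0.49 ± 0.10 SE, limma adjusted p 0.00426) than in A3. Among other peptide hormone genes, neuromedin U (NMU) was higher by 0.64 in untreated A3 than in wt, and the bradykinin receptor BDKRB1 was higher than in A3 by 0.95 in CPA-treated D4 and by 0.64 in CPA-treated D3. These calls held whichever array was left out.

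CPA called 2 of the 158 pathway genes in D4, 1 in each direction against 0.664% of all genes higher and 0.364% lower, and 0 in D3, A3 and wt. An unadjusted p under 0.05 in limma was found for 40 in D4 and for 14, 14 and 8 in D3, A3 and wt. Such p-values were common over all 17314 genes in D4. Their number there lay between 2703 and 4434, the ranks of NTS (limma unadjusted p 0.0284) and NTSR2 (limma unadjusted p 0.0662). These counts are therefore not read as a response of the pathway. The median difference in D4 was -0.07 over the 158 and -0.03 over all genes. In D4 the neuromedin B gene NMB was lower (-0.50 ± 0.10 SE, limma adjusted p 0.0147) and GNA14, a Gq family subunit, was higher (0.36 ± 0.09 SE, limma adjusted p 0.046). The count of calls in D4 was 0 without replicate 1 of either D4 group, 7 without replicate 2 of untreated D4 and 1 without any other D4 array. In a fit of the compared groups alone the adjusted p was 0.0733 for NMB and 0.146 for GNA14. In D3 the count of calls was 1 without replicate 3 of the treated group.

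The genes whose group means most resembled those of NTS were picked by Pearson correlation over the 8 group means, among 2925 genes whose means spanned at least 0.5. The 10 most alike were EIF3L (0.98), PEA15, L3MBTL2, NUP50, SCN3A, AK5, MICALL1, SH2D1B, DDT and PSMC3 (0.95). EIF3L, a subunit of a translation initiation factor, averaged 10.58 in untreated D4, 10.65 in D3 and 10.94 in A3, against 10.46 in wt. Its span of 0.52 was far below the 2.82 of NTS, and the widest among the 10 was 1.01 in SH2D1B. Of the 10 genes 5 (EIF3L, L3MBTL2, NUP50, MICALL1 and DDT) lie on chromosome 22, which holds 71 of the 2925 eligible genes (2.43%), while NTS lies on chromosome 12. PEA15, AK5 and SH2D1B lie on chromosome 1. Chromosome 22 was singled out from this list, so its share is a description and no test. By Pearson correlation over the 31 arrays 3 of the 10 stayed among the most alike, and by Spearman correlation over group means 1 did.

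The 5 genes most opposite to NTS were NEO1 (-0.99), SATB1, MUC2, BHLHE41 and ZNF625-ZNF20. NEO1, the receptor neogenin, averaged 6.59 in untreated D4, 6.52 in D3 and 5.90 in A3, against 6.65 in wt. For NTSR1 the 5 most alike were MID1 (0.96), NSDHL, RACGAP1, TMEM19 and LGALS1 (0.92), over group means that spanned only 0.27 in NTSR1 itself. By correlation over the 31 arrays 0 of these 5 remained.

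**Figure D5:**
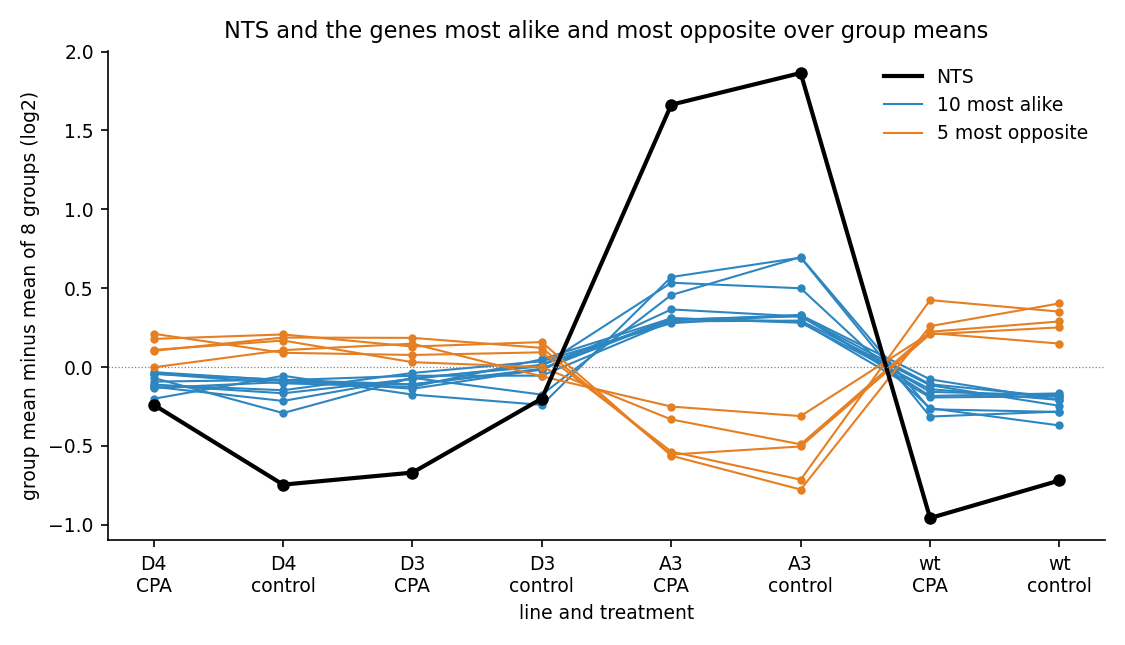
Group mean minus the mean of the 8 groups (y axis, log2) by line and treatment (x axis) for NTS (black), the 10 most alike genes (blue) and the 5 most opposite (orange). The blue genes rise in A3 by less than NTS, and the orange genes fall there.

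Of the 5 measured genes on each side of NTS on chromosome 12, 0 were higher and 1 was lower in untreated A3 than in wt, beside 10.1% and 8.36% of all genes. The lower one was RASSF9 (-0.56 ± 0.17 SE, limma adjusted p 0.0167), the gene just before NTS, so its difference ran opposite to that of NTS. Against untreated A3, 0 of the 10 were called in D4, beside 3.77% of all genes, and 0 in D3, beside 2.27%. At an unadjusted p under 0.05 in limma there were 4 in D4 and 0 in D3. The differences lay between -0.68 (CEP290) and 0.09 in D4 and between -0.27 and 0.04 in D3. After CPA RASSF9 was again lower in A3 than in wt (-0.62 ± 0.15 SE, limma adjusted p 0.00466), 1 of the 10, beside 9.60% of all genes lower. TMTC2 was lower in CPA-treated D4 (-0.37 ± 0.12 SE, limma adjusted p 0.0369) and in D3 (-0.44 ± 0.12 SE, limma adjusted p 0.0259) than in A3, the direction in which NTS differed. It was 1 of the 10 in each, beside 4.97% of all genes lower in D4 and 2.99% in D3.

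Around NTSR1 on chromosome 20, MRGBP was higher in untreated A3 than in wt (0.36 ± 0.09 SE, limma adjusted p 0.00698), and the other 9 neighbours were not called there. Of all genes 10.1% were higher and 8.36% lower in that comparison. After CPA the MRGBP difference was 0.13 ± 0.09 SE (limma adjusted p 0.356). MIR1-1HG was lower in CPA-treated D4 than in A3 (-0.43 ± 0.11 SE, limma adjusted p 0.00969), 1 of the 10 neighbours, beside 4.97% of all genes lower.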

How the data were processed

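Total RNA of PC3 xenografts was hybridised to 31 Affymetrix Human Gene 1.0 ST arrays. The deposited table holds log2 levels of 23989 probe sets, computed by the authors with RMA (submitters' processing notes), which subtracts background, equalises the distributions of the arrays and combines the probes of each set. For RMA, software and version are not given in the sources used here. Of 32 planned arrays the submitters left out 1 of untreated A3 as an outlier. Such normalization can hide a shift of all genes together.

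Probe sets with 1 gene symbol (17624) were used, 411 with several and 5954 with none were not, and of 276 genes with more than 1 set the one with the highest mean was kept. Groups were compared with limma 3.58.1 in R 4.3.3 in 1 fit of 8 group means over all arrays, with 23 residual degrees of freedom and Benjamini-Hochberg adjustment over 17314 genes. The residual SD was 0.35 for NTS and 0.24 for NTSR1, against a median of 0.15. Precision is limited by the number of arrays. The fit was tested on simulated data.

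The members, the gene lists and the tests were chosen with earlier results of these data known. Genes named were the members, those most like or opposite to them over group means that span at least 0.5, 5 measured neighbours on each side, and of each list up to 4 called genes with the smallest adjusted p in a comparison, with any member of the receptor, processing and peptidase lists. Alternatives were the compared groups alone, replicate number as a block, a variance trend, array weights, a further quantile normalization, median centring, leaving out the dimmest 30% of genes, every probe set by itself, leaving out 4 far arrays, and leaving out each array. Single-array results for the lists were added after seeing the data.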

Additional observations from a re-analysis of the deposited data

Results flagged for a closer look

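In 3 of 84 groups of 4 arrays checked, 1 array lay far from the other 3, with a gap to the nearest above the 95% critical share of the group's range in Dixon's test. Chance alone flags about 1 group in 20. NTSR2 read 5.87 in replicate 2 of CPA-treated D4 and 6.26 in replicate 2 of CPA-treated D3, each the lowest of its group. TGFA, an EGF receptor ligand gene, read 5.94 in replicate 4 of untreated wt. No array of NTS or NTSR1 was set apart in this way. Groups of 3 were not checked.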

How the results depend on the processing

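The 12 NTS differences between lines moved by less than the spread between replicates under each alternative run. Leaving out a single array cannot move a group mean by that much, so that outcome was fixed in advance and tests nothing. The compared groups alone, the variance trend, leaving out dim genes and separate probe sets keep the group means of NTS, so they could not test it either. NTSR1 stayed uncalled in all 22 contrasts under each alternative run, but its differences were near 0 and several changed sign. With array weights the NTSR1 response to CPA differed by 0.08 between D3 and wt and by 0.024 between D4 and wt, the response in D3 was 0.022, and D3 minus wt was 0.054 after CPA and -0.026 in controls. With a further quantile normalization the same response differences were 0.059 for D3 against wt and -0.069 for D4 against A3, the response in D3 was 2e-04, and D3 minus wt was 0.052 after CPA and -0.0067 in controls. With 4 arrays far from their group means left out, NTSR1 responses differed by 0.071 between D3 and wt and by 0.071 between D4 and wt, the responses were 0.022 in D3 and 0.021 in D4, and after CPA D3 minus wt was 0.084 and D4 minus D3 was -5e-04. Median centring put the response difference of D4 and D3 at 0.0044.

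After the group means were removed, same-numbered arrays of different groups correlated at a median of 0.05 (84 pairs, from -0.66 to 0.60). For arrays with other numbers the median was -0.01 (336 pairs, from -0.49 to 0.62). These medians pool all pairs of groups, so they cannot tell whether replicate numbers pair the samples within a line. With replicate number as a block NTSR1 gave 0.014 for the response difference of D4 and D3, 0.062 for CPA in wt, and 0.019 after CPA and 0.004 in controls for D4 minus A3; of 110 calls of named pathway genes 14 were lost.

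For NTS the response difference of A3 and wt was -0.0695 with array weights and -0.11 without the 4 arrays, and that of D3 and A3 was 0.048 without them. Over single arrays left out these NTS values ran from -0.15 to 0.19 for A3 against wt and from 0.79 to 1.15 for D4 against D3.

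The same ranges for NTSR1 response differences were -0.18 to 0.024 for A3 against wt, -0.084 to 0.15 for D3 against A3, -0.14 to 0.071 for D3 against wt, -0.095 to 0.15 for D4 against A3, -0.12 to 0.13 for D4 against D3 and -0.15 to 0.097 for D4 against wt. For CPA minus control they were -0.19 to 0.022 in D3, -0.20 to 0.048 in D4 and -0.13 to 0.038 in wt. After CPA they were -0.12 to 0.084 for D3 minus wt, -0.18 to 0.065 for D4 minus A3, -0.016 to 0.21 for D4 minus D3 and -0.033 to 0.18 for D4 minus wt. In controls they were -0.049 to 0.089 for D3 minus wt, -0.026 to 0.19 for D4 minus D3 and -0.013 to 0.20 for D4 minus wt.

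Fitting the compared groups alone, which leaves fewer arrays to estimate the spread, called 23 pathway genes for untreated A3 against wt, 0 for D3 against A3, 0 for D4 against A3 and 0 for CPA in D4. Array weights called 19 for D3 against A3, 18 for D4 against A3, 3 for CPA in A3 and 2 for CPA in D3; the cause was not tested. Leaving out single arrays gave 25 to 37 for A3 against wt, 1 to 4 for D3 against A3, 3 to 9 for D4 against A3, 0 to 7 for CPA in D4 and 0 to 1 for CPA in D3. Of the 110 named pathway calls 41 were lost with the compared groups alone and 16 without the 4 far arrays. Of the genes most like NTS 3 stayed over all arrays and 1 by Spearman correlation, and of those most like NTSR1 0 stayed over all arrays. The number of arrays and their spread limit what could be detected.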
